A study of Mus musculus with 16 samples.

Results

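The genes described here are 29 genes of the ventricular sarcomere and its Z-disc, chosen by symbol from the 18346 genes of a count table of mouse hearts. All 29 were in the table and all 29 were among the 13373 genes with enough reads to be tested. Bulk RNA sequencing was done on whole hearts in 4 groups of 4 hearts, 16 libraries in all. The groups were mice with a systemic knockout of Armh4 aged 25 months, wild-type c57bl/6j mice aged 25 months, Armh4 knockout mice aged 8 weeks and wild-type mice aged 8 weeks. All of these mice were kept on normal chow under the same light cycle, and the 4 hearts of each group came from separate animals. The knockout was in the whole body, so the measurements do not separate loss of Armh4 in the heart from its loss elsewhere. The labels give neither the sex of the animals nor how the allele was made, and the wild-type 8-week hearts carry another prefix in their titles than in their genotype label, which was followed. Values are CPM, read counts scaled to library size and between libraries, for comparisons of 1 gene across hearts, and FPKM, which also divides by transcript length, for levels set side by side between genes.

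A sarcomere is the contractile unit of heart muscle, in which myosin thick filaments slide along actin thin filaments when calcium binds troponin. Thin filaments of neighbouring sarcomeres are anchored and cross-linked at the Z-disc, thick filaments are held in register at the M-band, and titin runs from the Z-disc to the M-band as an elastic spring. The Z-disc also carries LIM-domain and ankyrin-repeat proteins that respond to stretch, and desmin and filamin tie it to its neighbours and to the cell membrane. The genes fall into 7 of the thick filament and M-band, 8 of the thin filament, 11 of the Z-disc core and its anchors, and 3 load-responsive genes of the Z-disc and intercalated disc.

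Libraries held 11456503 to 13298660 counts. Armh4 itself had 1 to 22 counts in the 8 knockout hearts and 158 to 254 counts in the 8 wild-type hearts, so that every library followed its genotype label. Wild-type 25-month heart 1 stood apart from the other 15 in the balance of long and short transcripts: its length score, the mean centred log2 CPM of the 2668 longest tested genes minus that of the 2665 shortest with the 29 left out of both, was -0.336, while the other hearts lay between -0.183 and 0.208. The atrial score, the mean centred log2 CPM of 4 atrial genes, ran from -2.003 to 3.278, so that the hearts differed in how much atrial RNA they held. The highest values were in knockout 8-week heart 38 (3.278) and knockout 25-month hearts A and B (2.980 and 2.129). At 25 months the score was -1.710 to -1.589 in wild-type hearts. Every knockout heart of that age was above them, with C at 0.141 and D at -1.508. Hearts are called by their animal numbers, and the knockout 25-month hearts by the letters A to D, in the order in which their values are given.

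The 29 genes made up 10.4%, 10.8%, 10.9% and 11% of all counts in the 4 knockout 25-month hearts, 10.2% to 11.8% in wild-type 25-month hearts, 11.6% to 12.5% in knockout 8-week hearts and 11.7% to 12.2% in wild-type 8-week hearts. In the knockout, every 25-month heart was below every 8-week heart in this share. In the wild type, 1 heart of 25 months, heart 5 with 11.8%, lay inside the range of the 8-week hearts and the other three were each at 10.2%. A lower share in bulk tissue can come from fewer cardiomyocytes or from less of these RNAs per cardiomyocyte, and these cannot be told apart here.

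Per transcript length, the 8 highest of the 29 genes in wild-type 8-week hearts were all genes of the thick or thin filament. Myl2, the ventricular regulatory light chain of myosin, was the highest of the 29 in every group and averaged 23094 ± 2969 FPKM in wild-type 8-week hearts (SD, n = 4). Tpm1, the tropomyosin that winds along actin, followed with 11222 ± 611 FPKM, and Actc1, cardiac alpha-actin, with 10631 ± 636 FPKM. Myl3, the ventricular essential light chain, had 9235 ± 690 FPKM in those hearts. Tpm1 and Actc1 did not differ beyond their SD in those hearts, while Myl2 stood clear of both. Tnnt2, which fixes troponin to tropomyosin, had 8246 ± 615 FPKM, and Tnni3, the inhibitory troponin subunit, had 6669 ± 617 FPKM. Myh6, the alpha-myosin motor of the adult mouse heart, took the most reads of the 29, 2.46% to 4.06% of all counts in a library, but had 6452 ± 484 FPKM per length, within the SD of Tnni3. Counts of Myh6, Tnni3 and Tmod1 were fractional in all 16 libraries and those of the other 26 were whole, and no source used here says how shared reads were assigned. Tnnc1, the calcium-binding troponin subunit, had 4110 ± 490 FPKM.

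Among Z-disc genes in the same wild-type 8-week hearts, Tcap, which caps the end of titin, was highest with 2745 ± 244 FPKM, ahead of Csrp3, the muscle LIM protein, with 1905 ± 171 FPKM. Ttn, the titin spring, had 83.2 ± 10.7 FPKM. Xirp2 and Xirp1, actin-binding Xin-repeat proteins of the intercalated disc, had 60.5 ± 4.78 and 49.3 ± 8.73 FPKM. Flnc, filamin C, which cross-links actin at the Z-disc and membrane, had 48.9 ± 6.18 FPKM. Mypn, myopalladin, had 37.8 ± 4.11 FPKM, and Myot, myotilin, a Z-disc cross-linker of actin, was the lowest of the 29 with 35.5 ± 3.86 FPKM. Mypn and Myot did not differ beyond their spread in those hearts.

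**Figure D1:**
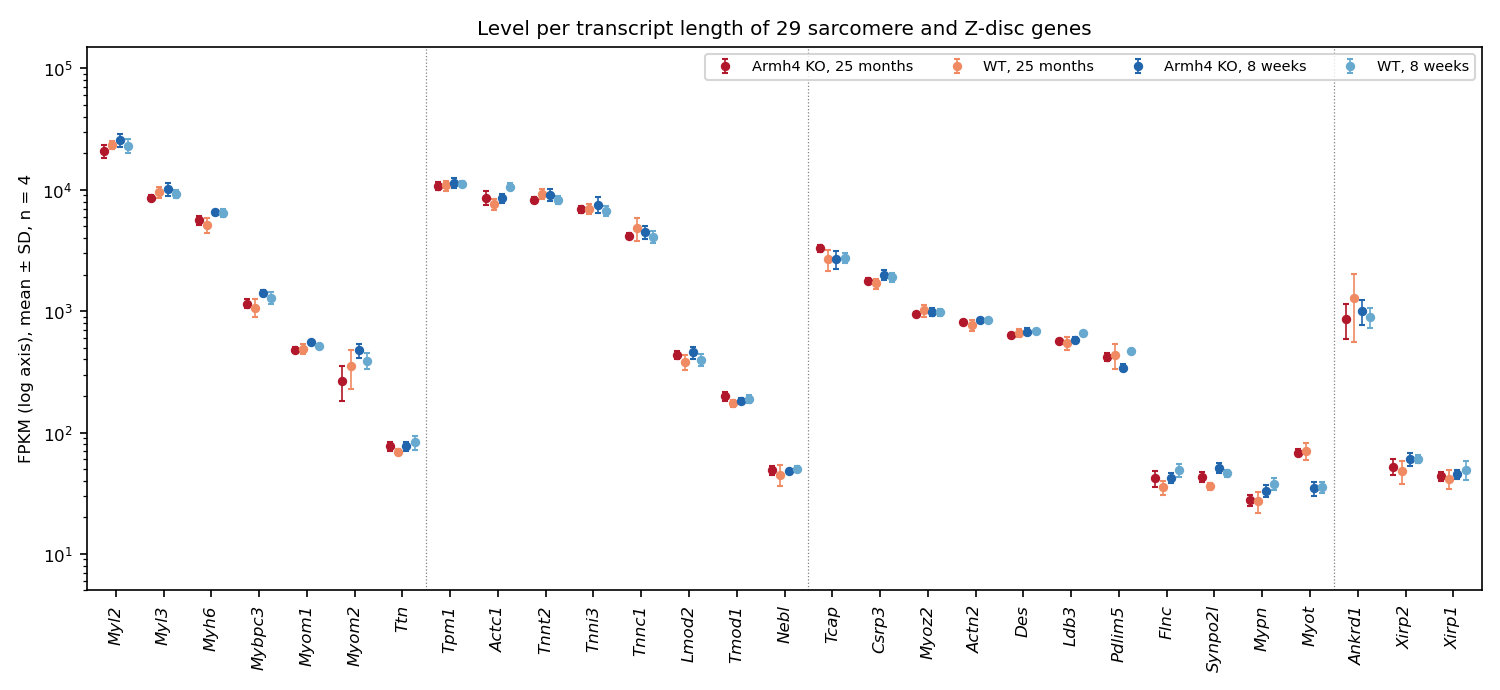
FPKM on a log axis of the 29 genes, ordered by role (left to right: thick filament and M-band, thin filament, Z-disc core and anchors, load-responsive genes) and within a role by level in wild-type 8-week hearts. Points are group means and bars are SD over 4 hearts; the groups from left to right are knockout 25 months, wild type 25 months, knockout 8 weeks and wild type 8 weeks. Myl2 stands highest with 23094 FPKM in wild-type 8-week hearts and Myot is the gene whose 2 ages separate most clearly.

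Of the comparisons made, age in the wild type had the most calls among the 29 genes. Of the 29, 9 fell in 25-month hearts relative to 8-week hearts and 1 rose, at an adjusted p under 0.05 over all 13373 genes in edgeR (quasi-likelihood F test, Benjamini-Hochberg). Over all genes tested, 10% fell and 11.9% rose in this comparison. The 9 that fell were Actc1, Synpo2l, Flnc, Mypn, Ttn, Myh6, Ldb3, Xirp2 and Mybpc3, and the gene that rose was Myot. Fold changes of 25 of the 29 were below 0 on the log2 scale, and their median was -0.21, against -0.01 over all genes tested. All 4 wild-type 25-month hearts lay below all 4 wild-type 8-week hearts for 7 of the 29 genes and above them for 1, while over all genes tested 9.68% lay wholly below and 12.0% wholly above. Because the 29 genes were listed with results of these data known, these counts describe them and are no test of the list.

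Myot rose in aged wild-type hearts. It had 141.5, 120.9, 111.8 and 149.7 CPM in wild-type 25-month hearts and 67.4, 77.2, 62.6 and 69.8 CPM in wild-type 8-week hearts. Every aged heart was above every young heart, by a wide gap. The log2 fold change was 0.92 ± 0.10 (SE), or 1.89-fold, with an adjusted p of 6.28e-06. Myot stayed past the threshold in all 28 alternative analyses of this comparison.

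The thin filament gene that fell in aged wild-type hearts was Actc1. It had 8487, 7759.6, 10288 and 8818 CPM in wild-type 25-month hearts and 13478, 12510.4, 13789 and 12236 CPM in wild-type 8-week hearts. No aged heart reached the lowest young heart. On the log2 scale the fold change was -0.56 ± 0.11 (SE), which is 0.68-fold, with an adjusted p of 0.000879, and it too kept its call in all 28 alternatives. Acta1, the skeletal alpha-actin that the heart expresses before birth and under load and whose coding sequence is very close to that of Actc1, averaged 132 ± 43.3 CPM in wild-type 25-month hearts and 706 ± 329 CPM in wild-type 8-week hearts, a log2 fold change of -2.42 ± 0.36 with an adjusted p of 9.50e-05. Actc1 counts were whole in all 16 libraries. No source used here says how reads shared by these 2 actins were assigned, so both levels carry that uncertainty. The other 7 thin filament genes did not pass the test with age in the wild type, with log2 fold changes from -0.24 for Nebl, nebulette, which sits on the thin filament at the Z-disc, to 0.16 for Tnnc1. The 3 troponin genes had values close to or above 0, at 0.10 for Tnnt2 (95% interval -0.10 to 0.29), -0.01 for Tnni3 (-0.22 to 0.21) and 0.16 for Tnnc1 (-0.10 to 0.43). Tpm1 was at -0.12 and the pointed-end regulators of actin were at -0.14 for Lmod2, which lengthens thin filaments, and -0.20 for Tmod1, which caps them.

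Of the 7 thick filament and M-band genes, 3 fell with age in the wild type: Ttn, Myh6 and Mybpc3. Ttn had 3923, 3815, 4389.9 and 4310.1 CPM in wild-type 25-month hearts and 4192, 5688, 6200.5 and 5406 CPM in wild-type 8-week hearts. Young heart 29, the lowest of its group, lay inside the aged range, and the other three young hearts were above every aged heart. The log2 fold change of Ttn was -0.39 ± 0.11 (SE) with an adjusted p of 0.0129, and without wild-type 8-week heart 39 it was -0.31 with an adjusted p of 0.0557. Counts per gene do not separate the titin isoforms. Myh6 had 23737, 29053, 35401 and 28669.5 CPM in wild-type 25-month hearts and 33289.7, 37970.1, 43211 and 39710.4 CPM in wild-type 8-week hearts. Aged heart 5 overlapped the young range, and aged heart 1 was the lowest of the 8. Its log2 fold change was -0.40 ± 0.11 (SE) with an adjusted p of 0.0138, and the adjusted p was 0.0579 without wild-type 25-month heart 1 and 0.0526 without wild-type 8-week heart 39.

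Mybpc3, the myosin-binding protein C that tunes cross-bridge cycling, was at the edge of the threshold. It had 3389, 3716, 5205 and 4018 CPM in wild-type 25-month hearts and 4318, 5446, 6020.3 and 4942 CPM in wild-type 8-week hearts. The groups overlapped through aged heart 5 and young heart 29. Its log2 fold change was -0.34 ± 0.12 (SE) with an adjusted p of 0.0494, and it stayed past the threshold in 4 of 28 alternatives. Without wild-type 25-month heart 1 it was -0.25 with an adjusted p of 0.168. Both light chains were near 0, at -0.05 for Myl2 (95% interval -0.27 to 0.18) and -0.02 for Myl3 (-0.23 to 0.19). The myomesins, which cross-link thick filaments at the M-band, were at -0.25 for Myom1 (adjusted p = 0.0618) and -0.21 for Myom2 (adjusted p = 0.575), and neither passed the test.

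Of the 11 Z-disc core and anchor genes, 4 fell with age in the wild type beside the rise of Myot. Synpo2l, an actin-binding protein of the Z-disc, had 121.4, 125.5, 156.4 and 139.0 CPM in wild-type 25-month hearts and 157.6, 190.7, 213.0 and 187.5 CPM in wild-type 8-week hearts. The highest aged heart fell just short of the lowest young heart. The change on the log2 scale was -0.47 ± 0.11 (SE), adjusted p = 0.0042. Flnc had 248.0, 280.6, 361.2 and 314.8 CPM in wild-type 25-month hearts and 363.5, 466.0, 515.3 and 406.1 CPM in wild-type 8-week hearts. Aged heart 5 came within a few CPM of young heart 29 without crossing it. The estimate for Flnc was a log2 fold change of -0.54 ± 0.13 (SE), adjusted p = 0.00648. Mypn, which links nebulette and alpha-actinin to the ankyrin-repeat protein Ankrd1, had 92.0, 143.0, 145.9 and 147.8 CPM in wild-type 25-month hearts and 159.9, 193.2, 226.0 and 196.1 CPM in wild-type 8-week hearts. Aged heart 1 was far below the other three aged hearts, which themselves all lay below the young hearts. The log2 fold change of Mypn was -0.55 ± 0.14 (SE), adjusted p = 0.0074, and -0.40 without that heart, adjusted p = 0.0186.

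Ldb3, a PDZ and LIM protein that binds alpha-actinin, showed the smallest of the falls that passed. It had 1015, 1202, 1300.1 and 1159.7 CPM in wild-type 25-month hearts and 1383, 1423, 1511 and 1354 CPM in wild-type 8-week hearts. The groups did not overlap. Its log2 fold change was -0.28 ± 0.08 (SE), adjusted p = 0.0162, and -0.20 without wild-type 25-month heart 1, adjusted p = 0.0669. Without wild-type 8-week heart 34 or 39 the adjusted p was 0.0513 or 0.0561. Csrp3 and Des, the desmin intermediate filament around the Z-disc, also had no overlap between the ages but did not pass the test, with log2 fold changes of -0.24 (adjusted p = 0.0516) and -0.13 (adjusted p = 0.277). Actn2, the alpha-actinin that cross-links the thin filaments, was at -0.21 (adjusted p = 0.117). Pdlim5, a PDZ and LIM scaffold, was at -0.19, Tcap at -0.10 and Myoz2, a calcineurin-binding Z-disc protein, at -0.01. Without wild-type 25-month heart 1, Pdlim5 was at -0.32 and passed the test, adjusted p = 0.0181.

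Among the 3 load-responsive genes, Xirp2 fell with age in the wild type. It had 686.3, 444.3, 478.2 and 555.8 CPM in wild-type 25-month hearts and 637.5, 780.9, 722.0 and 739.3 CPM in wild-type 8-week hearts. Aged heart 1, which was low for many of the other genes, was here the highest of the aged hearts and overlapped the young range. The estimate for Xirp2 was a log2 fold change of -0.41 ± 0.13 (SE), adjusted p = 0.0277, and it kept its call in 16 of 28 alternatives. The adjusted p rose to between 0.0569 and 0.103 when wild-type 25-month heart 4 or 5, or wild-type 8-week heart 34, 39 or 42, was left out. Xirp1 was at -0.32 (adjusted p = 0.119). Ankrd1, the stretch-responsive ankyrin-repeat protein that binds titin and also enters the nucleus, had 3385, 1018, 1721 and 1388 CPM in wild-type 25-month hearts and 1516, 1596, 1188 and 1188 CPM in wild-type 8-week hearts. A single heart, wild-type 25-month heart 1, held the high value, while the other three aged hearts straddled the young range. Its estimated log2 change was 0.45 ± 0.28 (SE), adjusted p = 0.257, with that heart and 0.02, adjusted p = 0.957, without it.

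**Figure D2:**
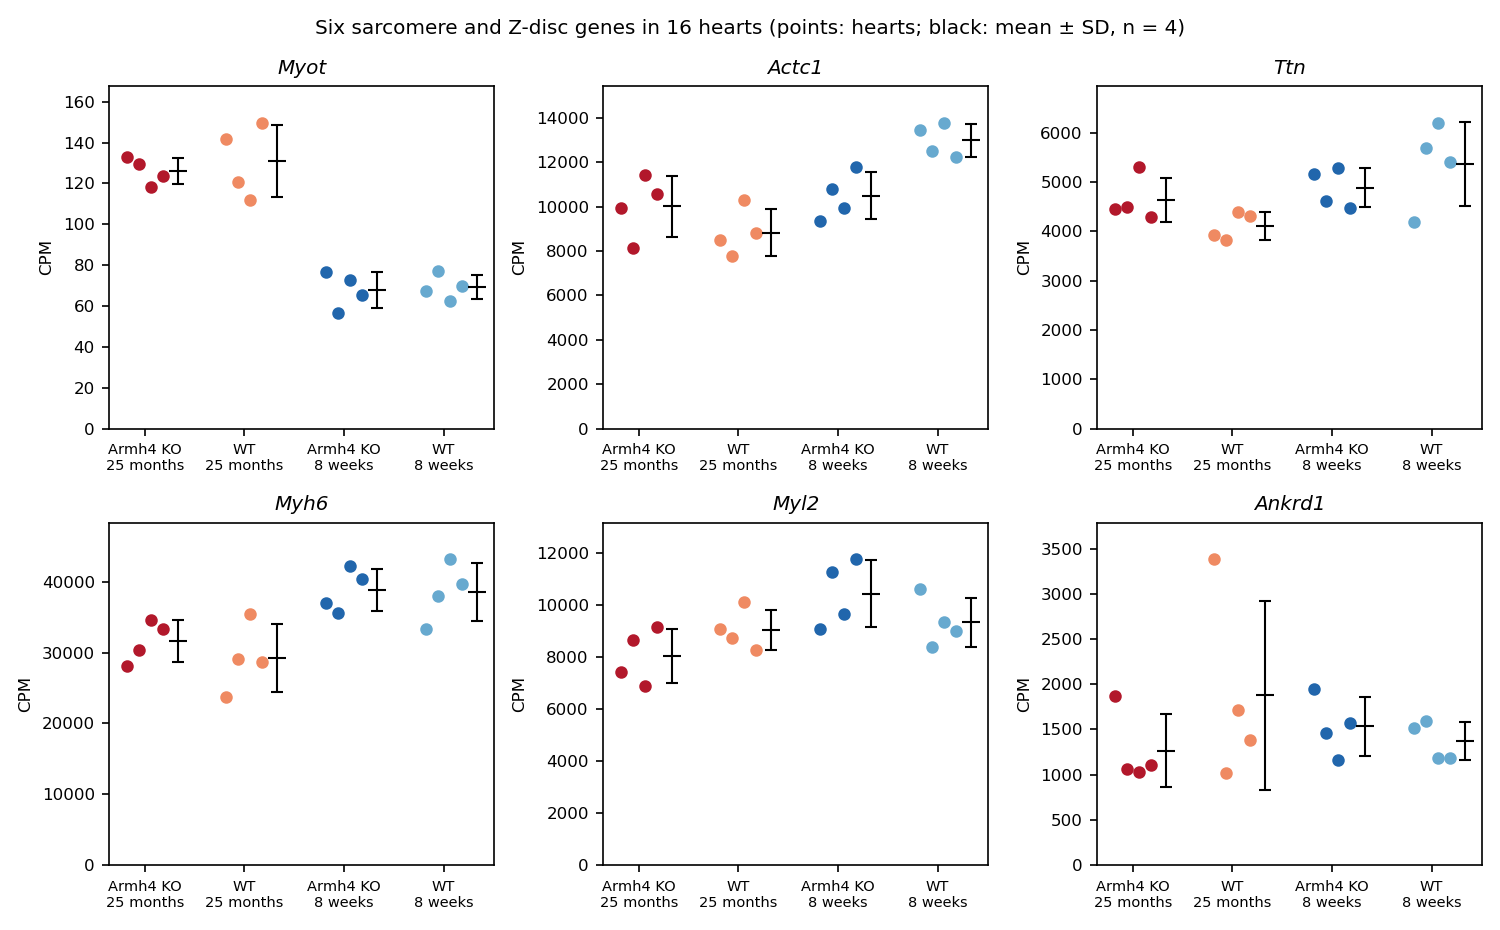
CPM per heart of Myot, Actc1, Ttn, Myh6, Myl2 and Ankrd1 in the 4 groups, on linear axes that start at 0; points are hearts, and black marks are mean ± SD over 4 hearts. Myot lies between 111.8 and 149.7 CPM in all 25-month hearts and between 56.5 and 77.2 CPM in all 8-week hearts, and wild-type 25-month heart 1 carries 3385 CPM of Ankrd1.

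The sequences just upstream of the genes that fell with age in the wild type are shown for those 6 of the 9 that have a single promoter entry in RefSeq, as the start regions of genes that moved in the same direction. RefSeq promoter entries of build GRCm38.p6 matched 25 of the 29 genes with 35 entries, and Tcap, Myom2, Myot and Xirp1 had none. Each line gives the 250 bases before the annotated start, read 5′ to 3′ on the strand of the gene. Capitals mark matches on either strand to the TATA box (TATAAA), the MCAT element (CATTCC), the CArG box bound by serum response factor or the MEF2 site. The windows lie at chr2:114052876-114053125 on the minus strand for Actc1, chr10:63203953-63204202 on the minus strand for Mypn, chr2:76982548-76982797 on the minus strand for Ttn, chr14:54966608-54966857 on the minus strand for Myh6, chr2:67445752-67446001 on the plus strand for Xirp2 and chr2:91117894-91118143 on the plus strand for Mybpc3.
Actc1: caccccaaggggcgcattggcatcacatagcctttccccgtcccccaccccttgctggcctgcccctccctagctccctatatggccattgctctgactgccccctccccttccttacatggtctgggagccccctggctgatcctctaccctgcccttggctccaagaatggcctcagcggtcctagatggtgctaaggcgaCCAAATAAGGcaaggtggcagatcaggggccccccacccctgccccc
Mypn: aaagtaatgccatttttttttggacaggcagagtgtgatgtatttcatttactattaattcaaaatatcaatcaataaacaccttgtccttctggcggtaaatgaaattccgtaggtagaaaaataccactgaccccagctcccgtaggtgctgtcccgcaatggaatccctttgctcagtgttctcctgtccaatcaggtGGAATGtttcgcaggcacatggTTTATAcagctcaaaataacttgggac
Ttn: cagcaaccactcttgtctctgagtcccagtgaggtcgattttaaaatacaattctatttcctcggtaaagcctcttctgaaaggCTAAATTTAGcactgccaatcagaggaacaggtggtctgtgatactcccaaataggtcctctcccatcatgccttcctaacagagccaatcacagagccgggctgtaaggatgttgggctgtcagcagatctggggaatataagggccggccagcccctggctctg
Myh6: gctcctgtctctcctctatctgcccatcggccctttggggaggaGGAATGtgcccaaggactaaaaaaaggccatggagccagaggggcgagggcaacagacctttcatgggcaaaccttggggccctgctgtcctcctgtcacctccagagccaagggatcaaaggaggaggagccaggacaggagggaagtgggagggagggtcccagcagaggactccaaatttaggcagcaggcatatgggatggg
Xirp2: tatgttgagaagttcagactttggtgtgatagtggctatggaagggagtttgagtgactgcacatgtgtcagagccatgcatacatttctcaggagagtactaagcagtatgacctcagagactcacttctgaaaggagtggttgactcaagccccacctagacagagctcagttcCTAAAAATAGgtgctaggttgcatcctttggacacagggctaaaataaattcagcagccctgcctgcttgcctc
Mybpc3: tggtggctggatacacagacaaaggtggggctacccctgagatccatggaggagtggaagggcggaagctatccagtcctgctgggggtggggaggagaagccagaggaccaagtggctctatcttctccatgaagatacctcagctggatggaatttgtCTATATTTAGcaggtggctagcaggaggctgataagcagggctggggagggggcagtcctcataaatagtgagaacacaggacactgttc
Actc1 holds a CArG box 47 to 38 bases before its start, and Ttn, Xirp2 and Mybpc3 each hold a MEF2 site, beginning 166, 74 and 90 bases before theirs. Myh6 has a reverse-strand MCAT element beginning 206 bases before its start, and Mypn has a reverse-strand MCAT element at 49 bases and a reverse-strand TATA box at 27 bases. Across all 35 windows of the 29 genes, a CArG box occurred in 17.1% and a MEF2 site in 17.1%, against 1.47% and 2.92% of 32817 windows of the same length over all genes in the table. An MCAT element occurred in 28.6% of the windows of the 29 genes and in 12.6% of all windows, and a TATA box in 8.57% and 12.4%. Several entries belong to 1 gene and overlap, so that windows are not independent, and no 2 different motifs overlapped within these 35. Genes that did not fall hold the same motifs, among them a MEF2 site in Myoz2 and a CArG box in Myl3, and a match in letters does not show that a factor binds there.

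In the knockout, 2 of the 29 genes fell with age and 1 rose, by the same test, whereas 2.64% of all genes tested fell and 5.03% rose. These were other hearts than those of the wild-type comparison, so the 2 sets of values share no library. Myot rose again, and the 2 that fell were Myom2 and Myl2. As in the wild type, 25 of the 29 fold changes were below 0, with a median of -0.18 on the log2 scale against -0.01 over all genes tested. All 4 knockout 25-month hearts lay below all 4 knockout 8-week hearts for 4 genes, Myom2, Mybpc3, Myom1 and Myh6, and above them for 2, Myot and Pdlim5. Over all genes tested, 6.97% lay wholly below and 8.71% wholly above.

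Myot had 133.1, 129.4, 118.3 and 123.6 CPM in knockout 25-month hearts and 76.4, 56.5, 72.5 and 65.2 CPM in knockout 8-week hearts. The ages were again fully apart, and the level at each age was close to that in the wild type. The log2 fold change was 0.90 ± 0.10 (SE), or 1.86-fold, adjusted p = 3.55e-05, and it kept its call in all 28 alternatives.

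Myom2 had 1634, 1222, 686.0 and 1363 CPM in knockout 25-month hearts and 2126, 2271, 2737 and 2028 CPM in knockout 8-week hearts. Aged heart C was much the lowest, and even the highest aged heart was below the lowest young heart. On the log2 scale the fold change was -0.90 ± 0.24 (SE), or 0.535-fold, adjusted p = 0.0269. Without knockout 25-month heart C it was -0.70 with an adjusted p of 0.0783, and without knockout 25-month heart B or knockout 8-week heart 31 or 38 the adjusted p was 0.0713, 0.0541 or 0.0766. Myl2 had 7419, 8629, 6883 and 9131 CPM in knockout 25-month hearts and 9076, 11244, 9628 and 11746 CPM in knockout 8-week hearts. The groups overlapped slightly, through aged heart D and young heart 27. The change on the log2 scale was -0.38 ± 0.11 (SE), adjusted p = 0.0347. Leaving out knockout 25-month heart A or C, or knockout 8-week heart 31 or 53, gave adjusted p-values between 0.0930 and 0.124. Myl2 kept its call in 20 of 28 alternatives. The highest adjusted p was 0.458, with limma on log2(FPKM + 1) without a filter. Its partner light chain Myl3 was at -0.33 with an adjusted p of 0.0554.

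None of the 9 genes that fell with age in the wild type passed in the knockout in the edgeR fit of all 16 libraries. Myh6 had 28083, 30396, 34660.0 and 33371 CPM in knockout 25-month hearts and 37077, 35654, 42205 and 40449 CPM in knockout 8-week hearts. The ages did not overlap, and the log2 fold change was -0.30 ± 0.11 (SE), adjusted p = 0.113. Ttn had 4454, 4492, 5293 and 4298 CPM in knockout 25-month hearts and 5155, 4616, 5277 and 4473 CPM in knockout 8-week hearts. These ranges ran over each other, with a log2 fold change of -0.07 ± 0.10 (SE), a 95% interval of -0.29 to 0.15 and an adjusted p of 0.737. Actc1 had 9955, 8147, 11422 and 10562 CPM in knockout 25-month hearts and 9365, 10822, 9963 and 11808 CPM in knockout 8-week hearts. Here too the ages overlapped, and the log2 fold change was -0.07 ± 0.11 (SE), 95% interval -0.29 to 0.15, adjusted p = 0.772.

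Xirp2 had 675.4, 567.9, 633.8 and 486.8 CPM in knockout 25-month hearts and 791.3, 600.8, 709.9 and 767.0 CPM in knockout 8-week hearts, with a log2 fold change of -0.28 ± 0.13 (SE) and an adjusted p of 0.208. Ankrd1 had 1871, 1059, 1027 and 1110.1 CPM in knockout 25-month hearts and 1952, 1459, 1163 and 1572 CPM in knockout 8-week hearts. Aged heart A was high and the other three aged hearts were below all young hearts. The log2 fold change of Ankrd1 was -0.28 ± 0.28 (SE), adjusted p = 0.61. Mybpc3, at -0.37 (adjusted p = 0.0752), Synpo2l, at -0.30 (0.0979), and Mypn, at -0.34 (0.145), were also below 0 without passing, while Flnc, at -0.09 (0.753), and Ldb3, at -0.08 (0.618), were nearer 0.

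**Figure D3:**
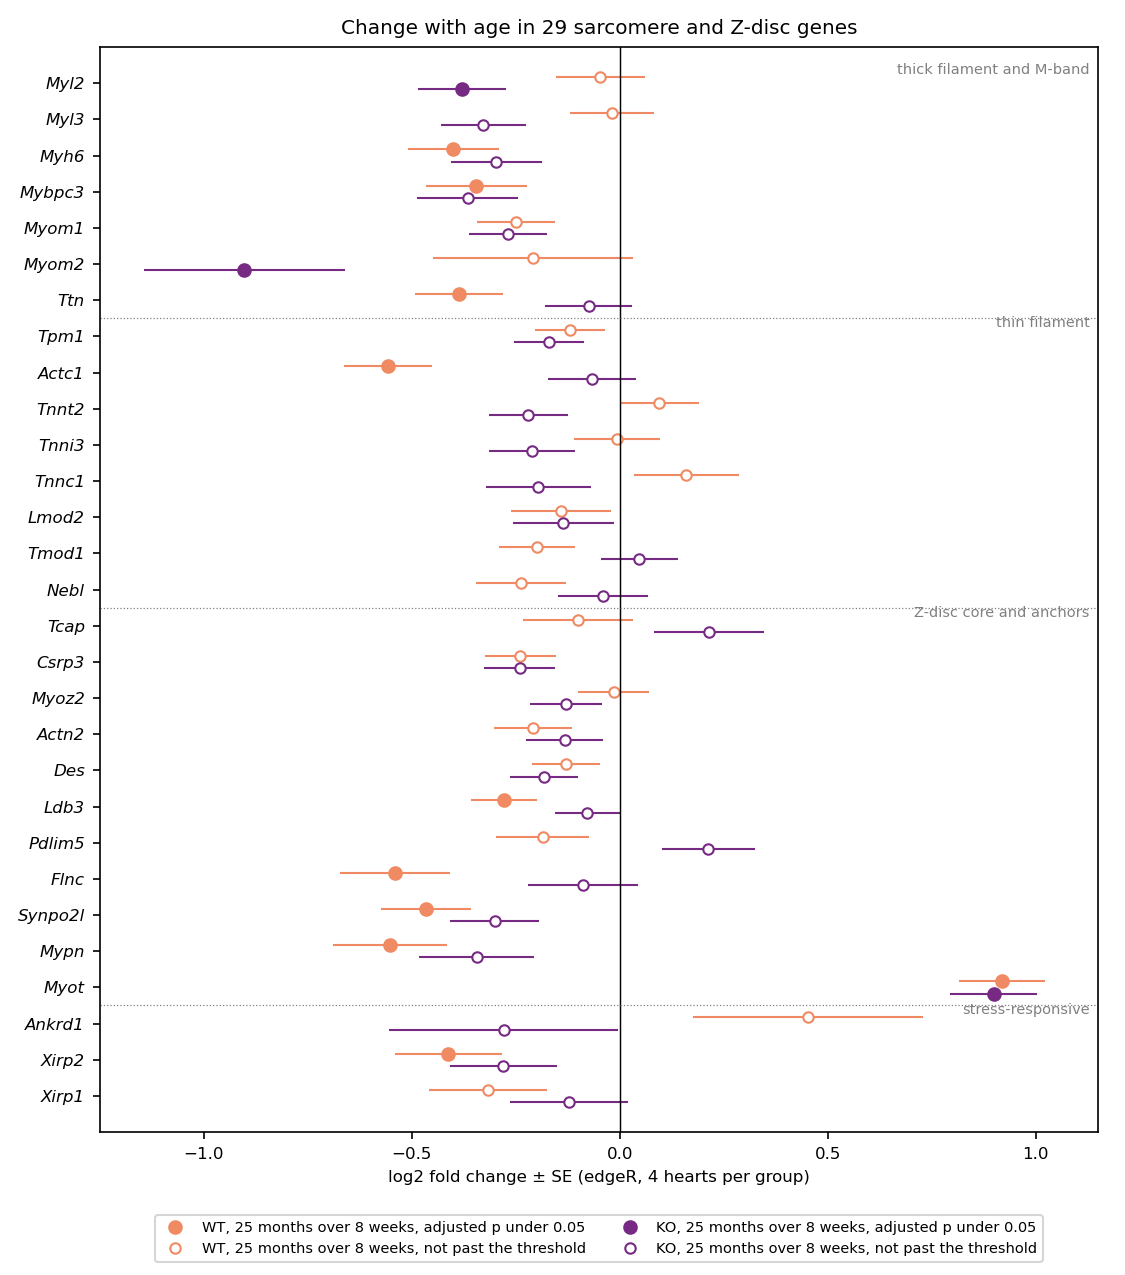
Log2 fold change of 25 months over 8 weeks for the 29 genes, in wild-type hearts (orange) and knockout hearts (purple), ordered by role; points are edgeR estimates from 4 hearts per group, bars are SE, and filled points have an adjusted p under 0.05. Myot stands alone on the right at 0.92 in the wild type and 0.90 in the knockout, and most other points lie left of 0.

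Whether the change with age differed between knockout and wild type was tested directly, as the change in the knockout minus that in the wild type. By edgeR's quasi-likelihood test 0 of the 29 genes passed, DESeq2 also called 0, and 0.576% of all genes tested passed. At an unadjusted p under 0.05 there were 7, and none of their adjusted p-values was below 0.156. The smallest was that of Actc1, with a difference of 0.49 ± 0.15 (SE, log2), a 95% interval of 0.18 to 0.80 and an adjusted p of 0.156. Pdlim5 differed by 0.40 ± 0.16 (adjusted p = 0.306) and Flnc by 0.45 ± 0.19 (0.321), both with the value for age higher in the knockout. In the other direction, Tnnt2 differed by -0.31 ± 0.13 (0.339), Myl2 by -0.33 ± 0.15 (0.372) and Myl3 by -0.31 ± 0.14 (0.387). Ttn differed by 0.31 ± 0.15 (0.403), Myh6 by 0.10 ± 0.16 (0.838), Xirp2 by 0.13 ± 0.18 (0.818) and Ankrd1 by -0.73 ± 0.39 (0.472). Without wild-type 25-month heart 1, Pdlim5 passed, at 0.53 with an adjusted p of 0.0481. The genes called with age in one genotype and not in the other are therefore not shown to differ between the genotypes.

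Between knockout and wild type at 25 months, 0 of the 29 genes passed the test in edgeR and 0 in DESeq2 (3 with an unadjusted p under 0.05), and 1.11% of all genes tested passed in edgeR. At an unadjusted p under 0.05 in edgeR there were 2, Synpo2l at 0.27 ± 0.11 (SE, log2; adjusted p = 0.336) and Tcap at 0.28 ± 0.13 (adjusted p = 0.436), both higher in the knockout. For no gene were all 4 knockout hearts on one side of all 4 wild-type hearts, while over all genes tested 2.94% lay wholly below and 2.10% wholly above. The median of the 29 log2 fold changes was 0.05, against 0.00 over all genes tested. The summed level of 10 atrial markers was 223 to 717 CPM in knockout 25-month hearts and 197 to 544 CPM in wild-type 25-month hearts. Its part in these values was not tested beyond a fit with the atrial score, which also called 0 of the 29. Over all genes that fit called 19, against 149 without the score. All 9 tested atrial markers had values above 0, with a median log2 fold change of 2.10, and 0 passed the test in edgeR while 6 had an unadjusted p under 0.05. Macrophage markers summed to 402 to 440 CPM in knockout 25-month hearts and 532 to 752 CPM in wild-type 25-month hearts, with 1 of 10 called lower. Neutrophil markers summed to 4.89 to 15.9 CPM in knockout 25-month hearts and 22.7 to 36.9 CPM in wild-type 25-month hearts, with 3 of 4 tested called lower. Of 2 tested T and B cell markers 1 was called lower. All 7 tested erythroid markers were below 0, of which 0 passed in edgeR and 5 had an unadjusted p under 0.05. Of fibroblast, endothelial, and smooth muscle and pericyte markers 0 were called. The part of these lists in the values of the 29 genes was not tested. Ankrd1 had the lowest value, -0.57 ± 0.28 (SE; 95% interval -1.15 to 0.01; adjusted p = 0.465), from 1871, 1059, 1027 and 1110.1 CPM in knockout 25-month hearts and 3385, 1018, 1721 and 1388 CPM in wild-type 25-month hearts. Without wild-type 25-month heart 1 that value was -0.13 with an adjusted p of 0.929. Myh6 was at 0.11 (95% interval -0.12 to 0.34), Ttn at 0.17 (-0.05 to 0.39), Xirp2 at 0.13 (-0.14 to 0.40) and Actc1 at 0.18 (-0.04 to 0.40).

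At 8 weeks, again 0 of the 29 genes passed between knockout and wild type in edgeR, while 0.322% of all genes tested passed, 2 of the 29 had an unadjusted p under 0.05 and DESeq2 called 1. The one called by DESeq2 was Pdlim5, a scaffold that brings protein kinases to the Z-disc. It is described because its values stood out when they were seen. Pdlim5 had 685.7, 609.8, 748.4 and 731.4 CPM in knockout 8-week hearts and 949.1, 956.6, 957.5 and 941.8 CPM in wild-type 8-week hearts. The wild-type hearts were nearly alike, and every knockout heart was below them by a wide gap. Its estimated log2 change was -0.46 ± 0.11 (SE; 95% interval -0.69 to -0.22), with an adjusted p of 0.114 in edgeR, 0.0128 in DESeq2, 0.0116 in edgeR on these 8 libraries alone and 0.0204 without wild-type 25-month heart 1. At 25 months the same gene had 840.5, 755.0, 866.4 and 755.4 CPM in knockout hearts and 1084, 680.1, 731.8 and 850.4 CPM in wild-type hearts. There the groups overlapped, with a log2 fold change of -0.06 ± 0.11 (SE; 95% interval -0.29 to 0.18).

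Actc1 was the other gene with an unadjusted p under 0.05 at 8 weeks, also singled out after its values were seen. The 4 values in knockout 8-week hearts and the 4 in wild-type 8-week hearts, given above for the comparisons with age, did not overlap, and the log2 fold change was -0.31 ± 0.11 (SE; 95% interval -0.53 to -0.09; adjusted p = 0.278). This comparison and the change with age in the wild type share the 4 wild-type 8-week hearts, in which Actc1 was highest, so that the 2 results are not independent. Acta1 averaged 364 ± 161 CPM in knockout 8-week hearts and 706 ± 329 CPM in wild-type 8-week hearts, with a log2 fold change of -0.95 ± 0.34 (adjusted p = 0.307). Ldb3 was the third gene without overlap, at -0.15 ± 0.08 (SE; adjusted p = 0.477). For these 3 of the 29 genes the knockout hearts lay wholly below the wild-type hearts, and for 0 wholly above, while over all genes tested 4.43% lay wholly below and 4.06% wholly above. Myh6 was at 0.01 (95% interval -0.22 to 0.24), Ttn at -0.14 (-0.36 to 0.08), Xirp2 at -0.01 (-0.27 to 0.26) and Ankrd1 at 0.16 (-0.41 to 0.74). The median over the 29 was 0.01, against 0.00 over all genes tested. Atrial markers summed to 309 to 779 CPM in knockout 8-week hearts and 301 to 515 CPM in wild-type 8-week hearts. All 9 tested had values above 0, with a median log2 fold change of 1.77, and 0 passed in edgeR while 4 had an unadjusted p under 0.05. A fit with the atrial score called 0 of the 29 and 7 over all genes, against 43 over all genes without the score. The part of these markers in the values was not tested further.

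**Figure D4:**
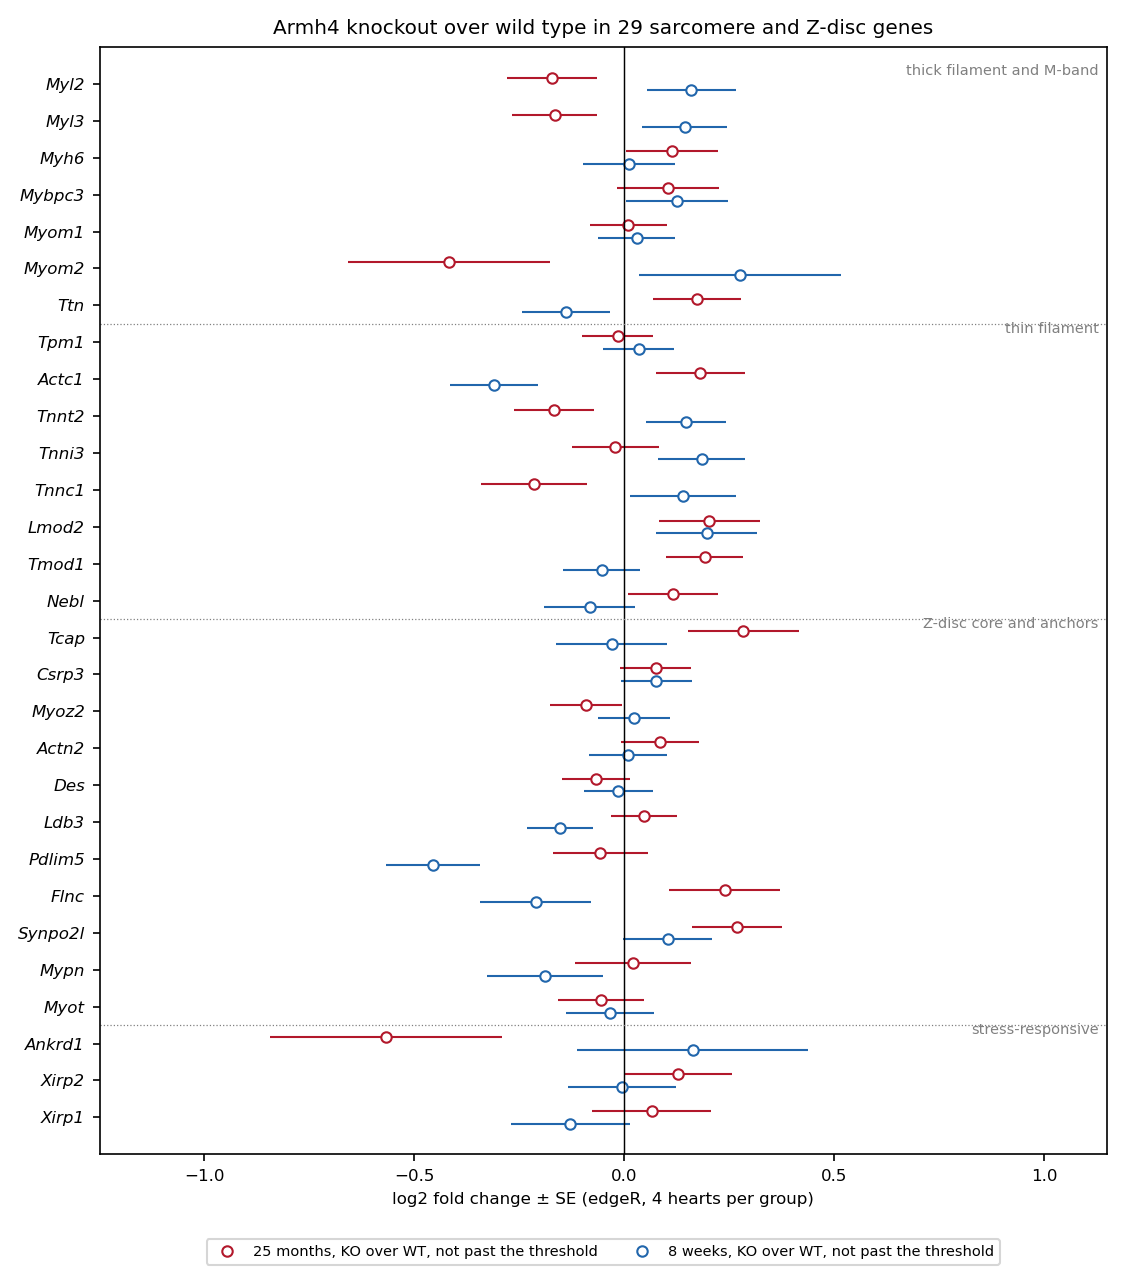
Log2 fold change of Armh4 knockout over wild type for the 29 genes at 25 months (red) and 8 weeks (blue), ordered by role; points are edgeR estimates from 4 hearts per group and bars are SE, all of them open because none had an adjusted p under 0.05. Pdlim5 at 8 weeks, at -0.46, lies farthest from 0 in units of its SE, and Ankrd1 at 25 months, at -0.57, has a wide bar.

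The genes that fell with age in the wild type were mostly those with long transcripts. Transcript length was read from the ratio of the 2 deposited values of each gene and was not compared with annotated lengths. Limits of 3.5 kb and 1 kb on this length were set after the values were seen. Of the 11 genes over 3.5 kb, namely Myh6, Mybpc3, Ttn, Myom1, Myom2, Nebl, Xirp1, Xirp2, Flnc, Mypn and Synpo2l, 7 fell in the wild type and all 11 had values below 0, with a median log2 fold change of -0.39. Of the 9 under 1 kb, namely Myl2, Myl3, Tnnt2, Tnni3, Tnnc1, Tpm1, Csrp3, Tcap and Myoz2, 0 passed by edgeR, 1 had an unadjusted p under 0.05, and the median was -0.02. Other genes of the same lengths differed the same way in this comparison, by less: the median was -0.07 over 4747 other genes over 3.5 kb and 0.09 over 1369 other genes under 1 kb. Of those 4747 other long genes, 637 fell and 2869 had values below 0. Of the 1369 other short genes, 43 fell and 485 had values below 0. In the knockout the median with age was -0.28 for the 11 long genes and -0.21 for the 9 short ones, against 0.01 and -0.04 for the other genes of those lengths.

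The length score of the libraries was -0.336, -0.135, -0.009 and 0.055 in wild-type 25-month hearts and -0.063, 0.208, 0.181 and 0.128 in wild-type 8-week hearts. The ages overlapped, since 8-week heart 29 lay below 25-month hearts 5 and 12, and the difference in score was not tested. In the knockout it was -0.008, 0.021, 0.073 and -0.106 in 25-month hearts and 0.109, -0.069, 0.134 and -0.183 in 8-week hearts, with the ages overlapping throughout. Adding the score to the model as a covariate, chosen after the data were seen, gave 3 of the 29 genes called with age in the wild type. These were Myot at 0.98 (adjusted p = 7.58e-05), Actc1 at -0.59 (0.00364) and Csrp3 at -0.40 (0.000692). The other 8 falls then had adjusted p-values of 0.0567 to 0.374, and their log2 fold changes were -0.42 for Xirp2, -0.36 for Flnc, -0.34 for Synpo2l, -0.31 for Mypn, -0.26 for Myh6, -0.23 for Ldb3, -0.18 for Ttn and -0.18 for Mybpc3. Over all 13373 genes the model called 2058. Csrp3 had an adjusted p of 0.0516 in the edgeR fit of all 16 libraries without a covariate. It also passed without the length score in DESeq2 (0.0255), with the atrial score (0.0446), and without wild-type 25-month heart 1 (0.0296) or knockout 8-week heart 53 (0.047). With age in the knockout the model with the length score called 6 of the 29, Myot, Myom2, Myl2, Myl3, Mybpc3 and Csrp3. Myom2 was at -0.88 and Csrp3 at -0.24. Over all genes it called 1311 there, while the model without the score called 673 higher and 353 lower. Between the genotypes the model with the score called 0 of the 29 at either age, with 4 at 25 months and 3 at 8 weeks under an unadjusted p of 0.05. Its calls over all genes were 96 at 25 months and 56 at 8 weeks.

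**Figure D5:**
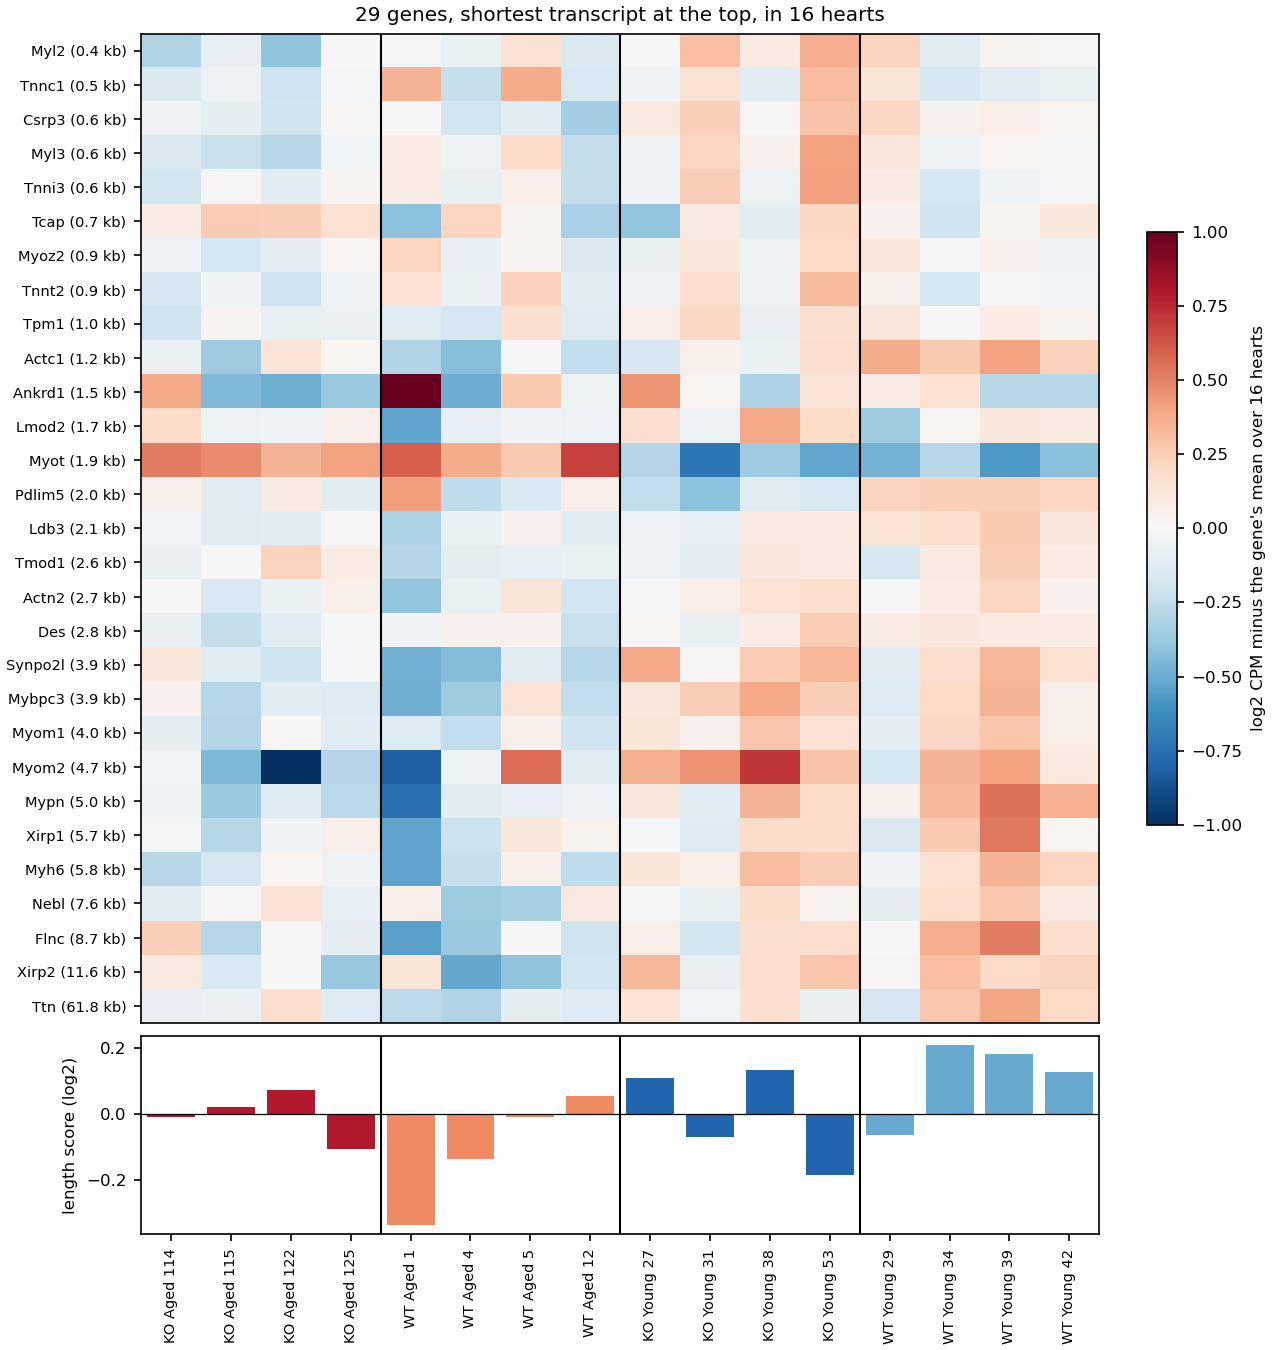
Log2 CPM of the 29 genes minus each gene's mean over the 16 hearts (colour, from -1 in blue to 1 in red), with genes from the shortest transcript at the top to the longest at the bottom and hearts in columns by group, the first 4 being knockout 25-month hearts A to D; the bars under it are the length score of each library on a log2 scale. Wild-type 25-month heart 1, with a score of -0.336, is blue for most long genes and red for Ankrd1, and the row of Myot changes colour between the ages.

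Replicate hearts of a group varied about as much for these genes as for all genes. The median SD over hearts, on the log2 scale, was 0.12 for the 29 genes and 0.13 for all genes in knockout 25-month hearts, and 0.20 and 0.20 in wild-type 25-month hearts. It was 0.16 and 0.15 in knockout 8-week hearts, and 0.13 and 0.14 in wild-type 8-week hearts. The widest gene was Myom2 in knockout 25-month hearts (SD 0.54), Ankrd1 in wild-type 25-month hearts (0.73) and in knockout 8-week hearts (0.31), and Xirp1 in wild-type 8-week hearts (0.29). Pdlim5 in wild-type 8-week hearts was the narrowest, with an SD of 0.01.

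Other genes of the sarcomere followed the age pattern in part. Of 32 further sarcomere and Z-disc genes, 29 were tested, and 4 fell and 1 rose with age in the wild type, while 3 fell and 1 rose in the knockout. Pdlim7, a PDZ and LIM protein, averaged 24.2 ± 2.06 CPM in wild-type 25-month hearts and 39.8 ± 2.24 CPM in wild-type 8-week hearts, a log2 fold change of -0.72 (adjusted p = 2.45e-05). In the knockout Pdlim7 averaged 30.6 ± 1.5 CPM at 25 months and 32.3 ± 4.23 CPM at 8 weeks, a log2 fold change of -0.08 (0.671). Its change with age differed between the genotypes by 0.64 ± 0.13 (adjusted p = 0.0325), and this was the only gene of the pathway lists that passed the test of the difference, a call that held in 14 of 27 alternatives. Obsl1, an obscurin-like linker of the M-band, fell by 0.69 on the log2 scale in the wild type and fell by 0.43 in the knockout. Speg, a kinase of the muscle triad, fell by 0.54 in the wild type. Lmod3, a leiomodin, fell by 0.45 in the knockout. Myh7b, a further myosin heavy chain, fell by 0.67 in the wild type and fell by 0.63 in the knockout. In this list and the 5 lists below, edgeR called 0 genes between knockout and wild type at either age. Over all genes tested, 1.11% passed between the genotypes at 25 months and 0.322% at 8 weeks.

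Genes that fold, assemble or degrade sarcomere proteins fell in 8 of 20 cases and rose in 1 with age in the wild type, and fell in 3 of 20 in the knockout. In the wild type these included Hspb6, a small heat shock protein, at -0.47 (log2), Asb2, a ubiquitin ligase subunit that targets filamins, at -0.54, and Unc45b, the myosin chaperone, at -0.44. In the knockout they were Hspb8 at -0.40, Smyd2 at -0.38 and Unc45b at -0.30. Of 23 genes of the costamere and intercalated disc, which couple Z-discs to the membrane and to neighbouring cells, 9 fell in the wild type, with Vcl, vinculin, at -0.53, Parva at -0.29 and Ilk at -0.27. In the knockout 1 fell, Gja1, the gap junction protein connexin 43 of the ventricle, at -0.43. Of 18 muscle transcription factors and cofactors, 10 fell with age in the wild type and 2 in the knockout. Srf, serum response factor, which binds the CArG box, averaged 98.2 ± 8.88 CPM in wild-type 25-month hearts and 135 ± 9.92 CPM in wild-type 8-week hearts, at -0.46 (adjusted p = 0.00122). Hopx, a homeodomain cofactor without DNA binding, fell by 0.67 in the wild type and fell by 0.57 in the knockout, and Hand2 fell by 0.52 in the wild type. Yap1 fell by 0.27 in the wild type and fell by 0.26 in the knockout. In the knockout the call of Yap1 held in 10 of 28 alternatives and that of Unc45b in 8, with adjusted p-values up to 0.153 and 0.131. With the length score as a covariate, the falls with age in the wild type numbered 4 of 29 further sarcomere genes, 9 of 20 assembly genes, 3 of 23 costamere genes and 4 of 18 transcription factors. In that fit 876 of all 13373 genes tested fell.

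Of 20 cardiomyocyte genes outside the sarcomere 3 fell with age in the wild type, Rbm24, a splicing factor that acts on sarcomere transcripts, at -0.43, Hrc, a calcium-binding protein of the sarcoplasmic reticulum, at -0.30, and Jph2, which joins the reticulum to the surface membrane, at -0.39. The calls of Hrc and Jph2 each held in 12 of 28 alternatives. Without wild-type 25-month heart 1, Hrc was at -0.19 (adjusted p = 0.146) and Jph2 at -0.26 (adjusted p = 0.146). The median of the 20 genes was -0.10 in the wild type and -0.09 in the knockout, where 1 gene rose, Corin, at 0.39. Of 15 fetal and skeletal isoforms 8 were tested. Acta1 fell by 2.42 on the log2 scale in the wild type and fell by 1.47 in the knockout. Myl1, a skeletal light chain, rose in both, by 0.84 and 0.88. Myh7, the beta-myosin motor that replaces Myh6 under load, averaged 324 ± 78.3 CPM in wild-type 25-month hearts and 545 ± 89.7 CPM in wild-type 8-week hearts, and did not pass the test (adjusted p = 0.163).

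Markers of other cells moved with age beside these genes. The summed level of 10 macrophage markers was 532 to 752 CPM in wild-type 25-month hearts and 208 to 290 CPM in wild-type 8-week hearts, with 8 of 10 called higher, and 402 to 440 CPM in knockout 25-month hearts and 236 to 285 CPM in knockout 8-week hearts, with 8 of 10 called higher. All 7 tested erythroid markers were called higher with age in the wild type, and their summed level was 1024 to 2221 CPM in 25-month hearts and 529 to 718 CPM in 8-week hearts. In the knockout 0 of 7 passed in edgeR, 2 had an unadjusted p under 0.05, and the summed level was 901 to 1844 CPM in 25-month hearts and 619 to 1080 CPM in 8-week hearts. Of 10 smooth muscle and pericyte markers 5 were called lower with age in the wild type, with summed levels of 1436 to 1788 CPM in 25-month hearts and 1997 to 2290 CPM in 8-week hearts. In the knockout 0 of the 10 were called in edgeR and 0 had an unadjusted p under 0.05, with summed levels of 1636 to 1740 CPM in 25-month hearts and 1788 to 1926 CPM in 8-week hearts. All 4 tested neutrophil markers were called higher with age in the wild type, where the 7 listed summed to 22.7 to 36.9 CPM in 25-month hearts and 1.89 to 2.65 CPM in 8-week hearts. In the knockout 2 of the 4 were called higher, with sums of 4.89 to 15.9 CPM in 25-month hearts and 1.83 to 4.12 CPM in 8-week hearts. No macrophage, erythroid or smooth muscle marker was at 0 throughout a group, while 1 neutrophil marker was in knockout 25-month hearts, 2 were in knockout 8-week hearts and 1 was in wild-type 8-week hearts. Of 10 fibroblast markers 1 was called higher and 2 lower with age in the wild type, and 0 were called in the knockout. Of 10 endothelial markers 1 was called higher and 2 lower in the wild type, and 2 higher and 1 lower in the knockout. Endothelial sums were 3969 to 4842 CPM at 25 months and 3798 to 3988 CPM at 8 weeks in the wild type. In the knockout they were 4003 to 4525 CPM and 3402 to 3696 CPM. Of 2 tested T and B cell markers 1 was called higher with age in the wild type and 0 were called in the knockout. The part of these shifts in the levels of the 29 genes was not tested.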

How the data were processed

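RNA from 16 whole mouse hearts was sequenced, with 4 separate animals in each of 4 groups. The deposited table holds expected counts per gene and FPKM made by the authors; per the submitters' processing notes HISAT and Bowtie2 were used with GRCm39. Versions, the counter and strandedness are not stated there or in any label. Between 9.57% and 10.5% of the deposited expected counts in a library were not whole, and they were rounded to whole numbers first. The authors' FPKM served for levels between genes and for transcript length, taken as the ratio of CPM to FPKM.

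Genes were filtered with filterByExpr, scaled by TMM and tested with edgeR 4.0.16 (quasi-likelihood, R 4.3.3) in 1 fit of all 16 libraries with 12 residual degrees of freedom, adjusted by Benjamini-Hochberg over 13373 genes. Alternatives used DESeq2 1.42.0, limma 3.58.1 on log2(FPKM + 1) or log2(FPKM + 0.1) with a filter of 0.5 FPKM in 4 hearts, other scalings, covariates and leaving out each heart. The scripts were tested on simulated data. The 29 genes and all lists were chosen with earlier results of these data known. Genes given in full were those past the threshold, at most 6 per comparison by adjusted p, with Myh6, Ttn, Ankrd1 and Xirp2 whatever their values and up to 3 called genes per pathway list; Mybpc3, Ldb3, Pdlim5, Myh7b, Lmod3 and other genes beyond that rule were added after their values were seen. Replicate numbers name animals and pair none. Upstream sequences came from RefSeq, build GRCm38.p6, which is not the build of the counts.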

Additional observations from a re-analysis of the deposited data

Results flagged for a closer look

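Of 116 groups of 4 hearts examined, 1 per gene and group for the 29 genes, 5 held a heart whose distance from its nearest neighbour was over Dixon's 95% limit for 4 samples, while chance marks about 5% of such groups. In wild-type 25-month heart 1, Lmod2 was at 491 CPM, Tmod1 at 394.7 CPM and Mypn at 92 CPM, each the lowest of its group, and this heart also had the lowest length score of the 16. Wild-type 25-month heart 5 had 11718.5 CPM of Tpm1, the highest of its group. Knockout 25-month heart A had 1871.2 CPM of Ankrd1, against 1027.1 to 1110.1 CPM in the other hearts of that group. The change of Pdlim7 with age differed between knockout and wild type by 0.637361 on the log2 scale in the test of the difference itself, with an adjusted p of 0.0325 by edgeR and of 0.00229 to 0.0899 over 27 alternatives, 14 of which passed the threshold.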

How the results depend on the processing

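The 0 calls between knockout and wild type at 25 months held under every alternative run, while calls over all genes ran from 19 to 263. At 8 weeks DESeq2 called 1 of the 29 and 149 over all genes, and a fit of only the 8 libraries called 1 and 113. Leaving out a heart gave 0 to 1 of the 29 and 3 to 72 over all genes. With age in the wild type, DESeq2 called 12 of the 29 (1 higher and 11 lower) and 3133 over all genes. A fit of only the 8 libraries called 6 and 2032, and log2(FPKM + 1) without a filter 6 and 2639. The length score as covariate called 3 and 2058. Leaving out a heart gave 5 to 11 of the 29 and 2111 to 2964 over all genes. With age in the knockout, DESeq2 called 7 of the 29 and 1203 over all genes. The 8 libraries alone called 5 and 1281, and log2(FPKM + 1) without a filter 1 and 939. The length score as covariate called 6 and 1311. Leaving out a heart gave 1 to 6 of the 29 and 643 to 1438 over all genes. Without knockout 25-month heart C or knockout 8-week heart 31 the count was 1 of the 29, with 726 or 757 over all genes. Without wild-type 25-month heart 5 the count was 5, with 1125 over all genes. Without wild-type 25-month heart 1 the count was 6, with 1438 over all genes. The difference between genotypes in the change with age gave 0 to 1 of the 29 and 18 to 213 over all genes. As a share of summed FPKM the 29 genes held 12.61% in knockout 25-month, 12.78% in wild-type 25-month, 13.98% in knockout 8-week and 13.82% in wild-type 8-week hearts. Values near 0 changed sign in 13 cases. For knockout over wild type at 25 months, Xirp2 was at -0.04769 with the atrial score. At 8 weeks Xirp2 was at 0.01268 with upper quartile scaling and between -0.05369 and 0.08021 with a heart left out, Myh6 was between -0.04712 and 0.07079 with a heart left out, and Ankrd1 was at -0.0036 with the length score. The genotype difference of Myh6 with age was -0.03964 with the length score and between -0.003434 and 0.209 with a heart left out. Single genes were tallied only if already called by edgeR, apart from Myh6, Ttn, Ankrd1 and Xirp2, and Actc1 and Pdlim5 in some comparisons. Among these values 1569 kept direction and side of the threshold, 173 fell short of it and 3 newly passed it. Most of them could not newly pass, so this tally does not measure how stable the missing calls were. Outside the tally, Csrp3, Myom1 and Actn2 newly passed in some alternatives with age in the wild type. Myl3, Mybpc3 and Mypn did so with age in the knockout. The causes were not tested. The length and robust settings were chosen after seeing the data. No paired analysis was possible because the groups share no replicate numbers.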
